A study of Mus musculus with 6 samples.

Results

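The genes for the proteins of the cytosolic ribosome were examined in B16.F10 cells, a pigmented mouse melanoma line, with and without simvastatin. Members were chosen by symbol: every gene named Rpl or Rps with a number, allowing a final a, l or x, together with Rplp0, Rplp1, Rplp2 and Rpsa. The rule found 78 genes, 47 of the large and 31 of the small subunit, with 297 transcripts, among 8513 genes and 15905 transcripts in the table. Among the 47, Rpl6l meets the rule by its symbol but is annotated in GENCODE as a processed pseudogene; without it and Rps27l, the median ratio given for the members stays at -0.34. The members lay on 19 chromosomes. RNA had been sequenced from 3 untreated control cultures and from 3 cultures given 3.5 µM simvastatin for 24 h, all wild type and, per the labels, biological replicates of 1 batch. The labels call the controls untreated and name no vehicle. Simvastatin blocks HMG-CoA reductase, the rate-limiting enzyme of the mevalonate pathway.

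A ribosome is built from a large subunit, which forms peptide bonds, and a small subunit, which reads the messenger RNA. Most of its proteins are present in a single copy per ribosome, and the acidic stalk proteins of the large subunit are the exception. Transcripts of these genes are among the most abundant in growing cells. Most start with an uninterrupted run of pyrimidines, the 5' terminal oligopyrimidine (TOP) tract, through which mTORC1 and the binding protein LARP1 control their translation. The mouse genome also holds many processed pseudogenes copied from these messages.

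Promoter sequences are shown first. A pyrimidine run near the annotated start was more common in these genes than among all genes, as given below. Each line holds 25 bases before the RefSeq-annotated start and 25 bases from it, on the coding strand of GRCm38.p6. Capitals mark a run of at least 8 pyrimidines (C or T). The first 6 lines are genes with a run, and the last 2 are genes without one whose transcripts are among the few that passed the authors' adjusted test. The entry for Rpl35a is the one of its entries that holds a run.
Rpl13a: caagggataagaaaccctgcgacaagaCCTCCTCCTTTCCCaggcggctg
Rps6: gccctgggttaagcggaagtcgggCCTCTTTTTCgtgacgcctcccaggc
Rpl27a: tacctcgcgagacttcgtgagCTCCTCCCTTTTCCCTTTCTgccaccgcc
Rplp2: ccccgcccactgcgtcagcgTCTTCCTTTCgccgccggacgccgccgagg
Rpl35a: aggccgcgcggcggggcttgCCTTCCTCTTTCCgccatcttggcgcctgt
Rps27: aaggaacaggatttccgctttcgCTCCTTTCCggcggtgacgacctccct
Rps15: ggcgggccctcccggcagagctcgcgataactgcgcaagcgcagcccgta
Rps16: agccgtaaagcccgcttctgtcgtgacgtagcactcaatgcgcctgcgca
These windows lie at chr7:45128721-45128770 (minus strand) for Rpl13a, chr4:86857343-86857392 (minus) for Rps6 and chr7:109519170-109519219 (plus) for Rpl27a. They lie at chr7:141447626-141447675 (plus) for Rplp2, chr16:33056457-33056506 (plus) for Rpl35a and chr3:90213624-90213673 (minus) for Rps27. Those of Rps15 and Rps16 lie at chr10:80292406-80292455 and chr7:28350664-28350713, both on the plus strand.

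Of the 78 genes, 57 had a promoter entry in the RefSeq table. A run of at least 8 pyrimidines within these 50 bases was present in 31 of the 57 (54.4%), against 22.3% of all genes of that table and 22.3% of those that also stand in the expression table. The letters CTTCCG or, on the other strand, CGGAAG, which occur in the sites of ETS-family factors, were looked for in the longer window from 250 bases before to 50 after the start. They were present in 40 of the 57 (70.2%), against 18.8% of all genes and 39.9% of those in the expression table. In the sequences of Rps6, Rpl27a, Rplp2, Rpl35a and Rps27 the run spans the annotated start, while in Rpl13a it begins 2 bases downstream. In some other genes the run ended before the start, as in Rpl39 (9 bases from position -21) and Rpl4 (14 bases from -18). In Rpl10a it began 17 bases downstream. Presence of a run in the window is therefore not the same as a TOP start. The median log2 ratio of simvastatin over control was -0.38 for the 31 genes with a run and -0.34 for the 26 without. A match of letters describes the sequence and not a bound factor.

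Only 1 value per transcript and group was used here, with the authors' fold, p and adjusted p. Their unit, and whether they are per length, are not stated in any source at hand, so genes are compared by their ratios, and an order of deposited values is not an order of RNA levels. Sequencing depth is unknown, and overlap between the replicates of the groups cannot be shown. All values summed to 394749 in control and 344210 after simvastatin, and 7 non-coding or uncharacterised transcripts of highest control value made up 38693 of the drop of 50539. Dividing by these totals raises every log2 ratio by 0.20, a shift that falls to 0.06 when those 7 transcripts are left out, so directions are given for the deposited values and, where they flip, for the scaled ones. The pigment-cell genes Pmel (1893 in control, 2799 after simvastatin) and Dct (2307 and 3437) marked the cells as melanocytic. Tyrp1 (1647 and 2002) and Mlana (741 and 836) were also present and higher, and Tyr (53.1 and 50.2) was slightly lower. In bulk RNA, fewer cells of a type and less RNA per cell cannot be told apart.

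Ribosomal protein genes were lower after simvastatin almost without exception, and by a similar, small amount. Values summed over the transcripts of each gene were lower in 74 of 78 genes (94.9%), against 48.3% of all genes. The median log2 ratio was -0.34, or 1.27-fold lower, against 0.02 over all genes. The spread was narrow: the SD over the members was 0.19 against 0.79 over all genes, and 57 of the 78 lay between -0.5 and -0.2. After division by the totals, 67 of 78 were lower and the median was -0.15, with Rplp1, Rpl37, Rpl4, Rplp0, Rpl10 and Rps18 among those that turned higher. The ratio was similar across levels: the median was -0.33 in the lowest, -0.36 in the middle and -0.35 in the highest of 3 equal groups by mean value. Among the 255 other genes whose summed value was at least 147, the lower quartile of the members, the median was -0.11 and 60.8% were lower. These 255 include ribosomal protein genes outside the naming rule, such as Rps3a1 and Fau, and pseudogenes such as Rps12-ps3.

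**Figure D1:**
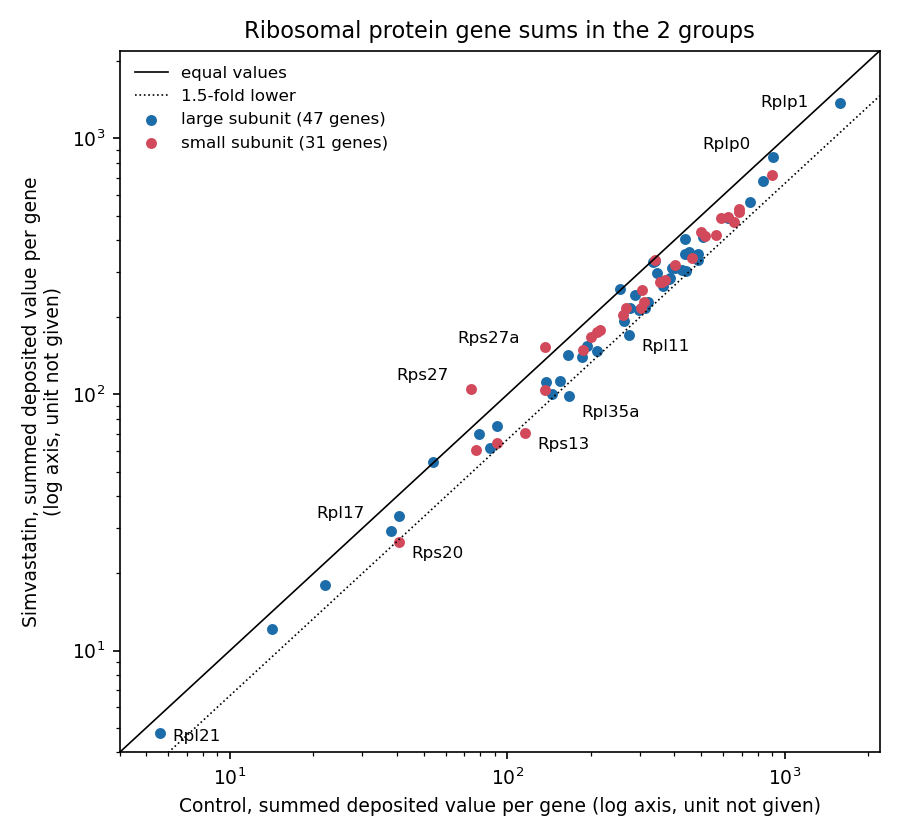
Deposited values summed per gene in control (x axis) and simvastatin cells (y axis), both on log axes, with 1 point for each of the 47 large (blue) and 31 small (red) subunit genes. Most points lie between the line of equal values and the dotted line of 1.5-fold lower values, and Rps27 and Rps27a stand above equality. Division by the group totals would raise every point by 0.20 on the log2 scale.

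Large and small subunit genes had nearly equal median ratios in the deposited gene sums. The median log2 ratio was -0.35 over the 47 large subunit genes, of which 45 were lower, and -0.34 over the 31 small subunit genes, of which 29 were lower. The difference of the medians, large minus small, was -0.001, and -0.06 with protein-coding transcripts only; it was not tested. Summed values of the large subunit stood at 79.9% of control and those of the small subunit at 79.4%. The ratio of large to small subunit values was therefore 1.45 in control and 1.46 after simvastatin.

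In the large subunit, 2 of the 3 stalk genes lay nearer to control than the subunit's median. Rplp1, an acidic stalk protein, had 1579.6 in control and 1379.9 after simvastatin (log2 ratio -0.19), and Rplp0, the stalk base, had 905 and 843 (-0.10). Both turned slightly higher after division by the totals. Rplp2, the partner of Rplp1, had 276 and 217 (-0.34), at the median of the subunit.

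Rpl5 and Rpl11, which join the 5S ribosomal RNA in the particle that can bind the p53 regulator Mdm2, both had gene sums in the lower part of the range. Rpl11 had 274 in control and 171 after simvastatin (-0.68), all 6 of its transcripts being lower, and Rpl5 had 210.2 and 148 (-0.51). The main Rpl5 transcript moved less, with 155.6 and 126.7 (-0.30), while a minor coding one had 48.2 and 13.6. Rpl23, another protein known to bind Mdm2, had 54.2 and 54.5 (0.01). The members of this group thus took places from near the bottom to near the top of the order.

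Rpl35a, a large subunit protein mutated in some Diamond-Blackfan anaemia, had the lowest ratio of all, 167 in control and 98.5 after simvastatin (-0.76). It was 1 of only 4 members whose summed value was at least 1.5-fold lower (5.13%), a rarer class than among all genes, where 12.3% were. Rpl8, which lies close to the peptidyl transferase centre, followed Rps20 in the order with 489 and 335 (-0.55). Rpl41, the smallest ribosomal protein, had 442 and 305 (-0.53). Rpl7 had 748 and 563 (-0.41), Rpl13a had 625 and 487 (-0.36), Rpl32 had 835 and 682 (-0.29) and Rpl22 had 40.7 and 33.4 (-0.29). At the other end, Rpl39, which lines the exit tunnel, had 255 and 259 (0.02).

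In the small subunit, Rps13 and Rps20 had the lowest ratios. Rps13 had 116 in control and 71.0 after simvastatin (-0.71), and Rps20 had 40.7 and 26.6 (-0.61). Neither had a transcript past an adjusted p of 0.05. In both, the most abundant transcript was a retained-intron one, with 69.3 and 31.5 in Rps13 and 23.9 and 13.0 in Rps20. The coding transcript had 41.8 and 29.1 in Rps13. In Rps20 it had 15.6 and 13.5, about level after division by the totals. Rps6, the target of the S6 kinases downstream of mTORC1, had 565 and 418 (-0.43), of which its coding transcript had 241 and 212. Rps14 had 655 and 473 (-0.47) and Rps19 had 684 and 528 (-0.37); loss of a copy of either gene is linked to anaemia in humans.

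Rpsa, also known as a laminin receptor precursor, had 463 in control and 341 after simvastatin (-0.44). Its transcript annotated as a target of nonsense-mediated decay had 143.6 and 48.5. Its coding transcripts moved less, with 145.5 and 127.5, and 119 and 131. Rps4x had 902 and 717 (-0.33), and Rps2 had 682 and 516 (-0.40). Rps15, needed late in the export of small subunits from the nucleus, had 624 and 492 (-0.34), and Rps16 had 356 and 276 (-0.37). Rps27l, a p53-regulated paralog of Rps27, had 303 and 217 (-0.48). Rps18 stood almost level, with 339.6 and 335 (-0.02), and was higher once scaled to the totals.

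**Figure D2:**
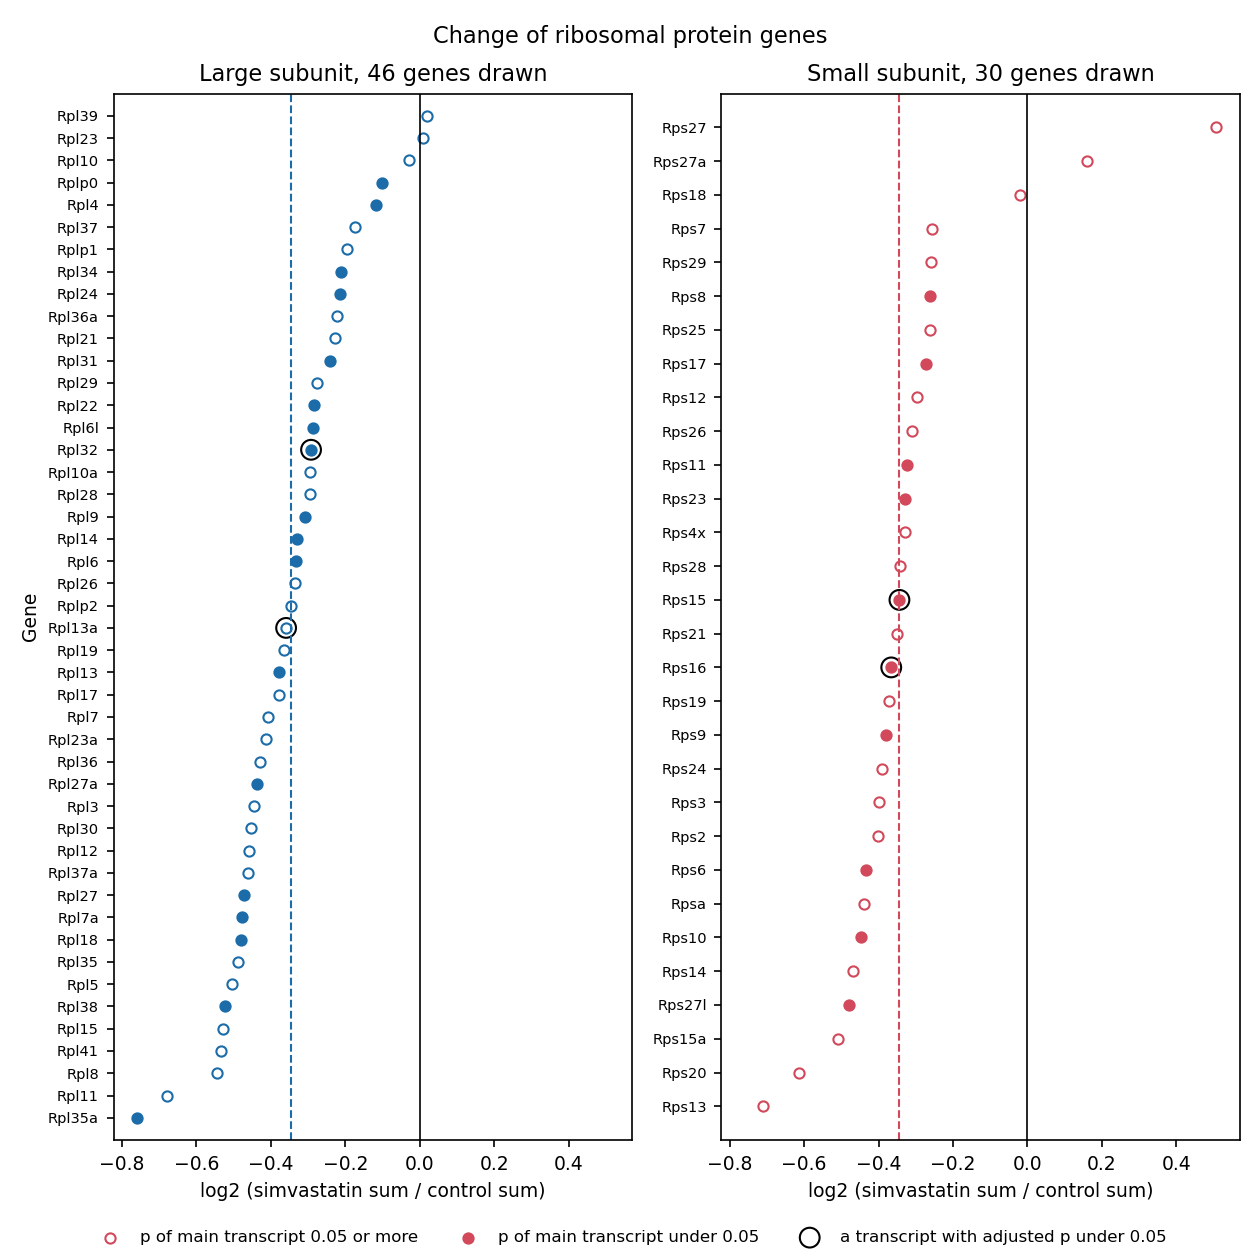
The log2 ratio of summed simvastatin over control values for 76 of the 78 genes, ordered within the large (left) and small subunit (right), with the median of all genes of the subunit as a dashed line and equality as a solid line. Filled points have an unadjusted p under 0.05 for the most abundant transcript, and black circles mark the 4 genes with any transcript at an adjusted p under 0.05. Of the 76 genes drawn, 72 lie left of equality, and 66 do after division by the group totals.

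Rps27, Rps27a, Rpl39 and Rpl23 were the 4 genes with a higher sum after simvastatin. No transcript of theirs that was higher had an unadjusted p under 0.05: in the authors' deposited table the lowest such p was 0.969 for Rps27, 0.53 for Rps27a, 0.227 for Rpl39 and 0.678 for Rpl23. Rps27, a zinc-finger protein of the small subunit, had 74.2 in control and 105 after simvastatin. Of the 31-base words of its main transcript, 98.7% also occur in Rps27rt, a retrotransposed copy, whose value went the other way, from 149 to 86.8. Rps27a, which is made as a fusion with ubiquitin, had 137 and 153. The authors called 1 assembled transcript of it lower, with 6.09 in control and listed at 0 after simvastatin, at an adjusted p of 0.059 in the authors' deposited table. Its named pseudogene had 331 and 217, and the sum of gene and pseudogene was lower (log2 ratio -0.34). How reads were shared between such copies is not stated, so the values of both genes are uncertain.

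Named copies of these genes were lower too. The table held 70 named ribosomal protein pseudogenes, of which 62 were lower, with a median log2 ratio of -0.33 and a summed value at 80.1% of control. The other 319 transcripts annotated as processed pseudogenes, whose parents were not sorted here, were 78.4% lower with a median of -0.30. By an unadjusted p under 0.05 in the authors' deposited table, 27 of the 77 transcripts of the named copies were lower (35.1%, against 10.2% of all transcripts) and 0 were higher (against 9.42%). Among the most abundant transcripts of all genes, the same rule gave 14.9% lower and 13.6% higher. At an adjusted p under 0.05 in the authors' deposited table, 1 of the 77 passed, against 0.987% of all transcripts lower and 1.11% higher. Of the 78 members, 40 had such a pseudogene, and adding it to its parent left 39 of 40 sums lower, with a median of -0.37; the exception was Rpl39 at 0.002. In 4 genes, Rpl21, Rpl17, Rps27a and Rps12, the deposited control values of the pseudogenes summed to more than that of the gene, with no account of length. Rpl21, for example, had 5.6 in control and 4.78 after simvastatin, while its pseudogene had 90.5 and 68.9.

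Members that share much and little sequence with other genes had similar ratios. Over all members, a median of 54.5% of the 31-base words of the main transcript occurred in other genes. The 39 genes at or below that share had a median log2 ratio of -0.35 and 36 were lower, and the 39 above it had -0.34 and 38 were lower. For 5 genes, among them Rpl22, Rpl8, Rps15a and Rps3, the share was under 10%, and all 5 were lower, with a median of -0.40.

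**Figure D3:**
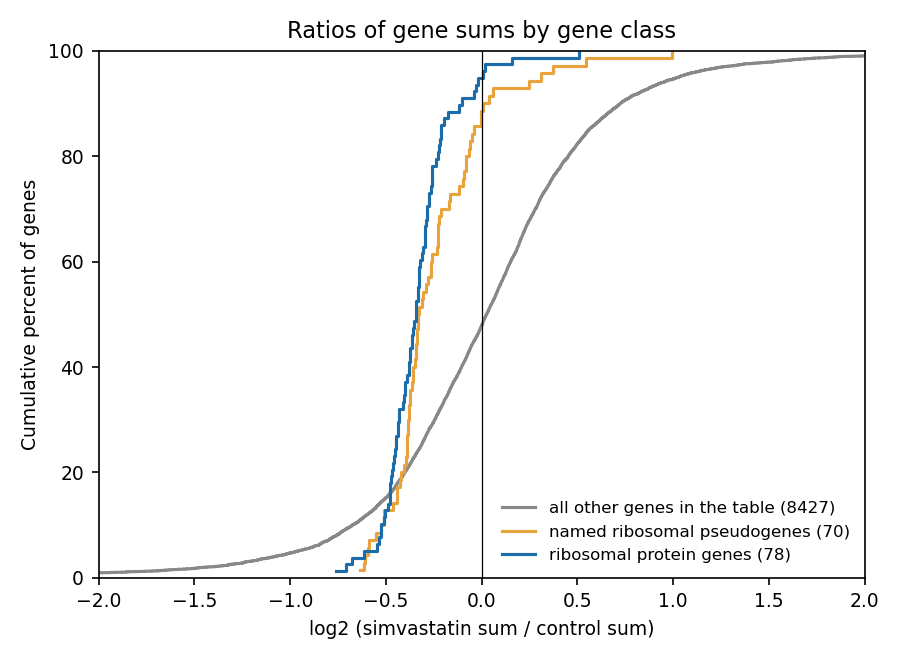
Cumulative percent of genes (y axis) by log2 ratio of summed simvastatin over control values (x axis) for 78 ribosomal protein genes, 70 named ribosomal protein pseudogenes and 8427 other genes, the pseudogenes included among the last. The members and pseudogenes rise steeply around -0.34 and -0.33, while the other genes are centred near 0. Division by the group totals would move all 3 curves to the right by 0.20.

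Few single transcripts passed the adjusted test, although most were lower. The value was lower in 241 of the 297 transcripts (81.1%), against 48.9% of all transcripts, and in the most abundant transcript of 72 of the 78 genes (92.3%), against 48.6%. In the authors' deposited table, 4 of the 297 transcripts were lower at an adjusted p under 0.05 (1.35%), against 0.987% of all transcripts, so the share of members called was close to the background. By the same rule 0 were higher, against 1.11% of all transcripts. The 4 were the most abundant transcripts of Rps16, Rpl32 and Rps15 (3.85% of the members' most abundant transcripts, against 1.39% of those of all genes) and a minor transcript of Rpl13a. At an unadjusted p under 0.05 in the authors' deposited table, 57 were lower (19.2%, against 10.2%) and 3 were higher (1.01%, against 9.42%). Among the most abundant transcript of each gene, 27 of 78 were lower by that rule (34.6%, against 14.9%) and 1, of Rpl31, was higher (1.28%, against 13.6%).

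The main transcript of Rps16 (ENSMUST00000082134) fell from 227 to 186, a 1.22-fold decrease with an adjusted p of 0.033 in the authors' deposited table. That of Rpl32 (ENSMUST00000081840) fell from 692 to 583, 1.19-fold, with an adjusted p of 0.038 in the authors' deposited table. That of Rps15 (ENSMUST00000068408) fell from 565 to 409, 1.38-fold, with an adjusted p of 0.042 in the authors' deposited table. The log2 ratios of these 3 transcripts were -0.286 for Rps16, -0.247 for Rpl32 and -0.465 for Rps15. The members' gene sums had a median of -0.344 and quartiles of -0.446 and -0.263. The other Rps15 transcript had 59.1 and 82.5, with an unadjusted p of 0.298 in the authors' deposited table. The retained-intron transcript of Rpl13a (ENSMUST00000211438) fell from 6.98 to 4.41, 1.58-fold, with an adjusted p of 0.042 in the authors' deposited table, and held 1.02% of its gene's value.

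The authors' own call took in both minor and main transcripts of the members. Its rule is not stated; over the whole table the called transcripts had a fold of at least 1.5 and an adjusted p of up to 0.2, and 13 transcripts within these limits were not called. In the authors' deposited table, 18 transcripts of 16 members were called, all lower (6.06%, against 4.37% of all transcripts called lower). Of the 18, 10 held under 10% of their gene's value, a share not compared with that over all member transcripts. By annotation 11 were protein coding, 4 retained-intron, 1 a processed transcript and 1 a target of nonsense-mediated decay, and 1 was assembled without a type. Most abundant transcripts, 1 per gene, make up 78 of the members' 297. Among the 18, 3 were of that kind (3.85% of the members' most abundant transcripts, against 5.5% of those of all genes). These 3 belonged to Rpl38 (191 in control, 96.2 after simvastatin), Rpl35a (73.2 and 40.7) and Rps6 (303 and 189). Together the 18 made up 4.56% of the members' control value. Of the most abundant transcripts, 23 had an adjusted p of up to 0.2 in the authors' deposited table, 22 of them lower (28.2% of members, against 12.2% of all genes) and 1 higher (1.28%, against 11.7%), and 3 reached 1.5-fold. The largest called change with a value in both groups was in a retained-intron transcript of Rpl13, 8.51 in control and 0.28 after simvastatin, with an adjusted p printed as 0.050 in the authors' deposited table.

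**Figure D4:**
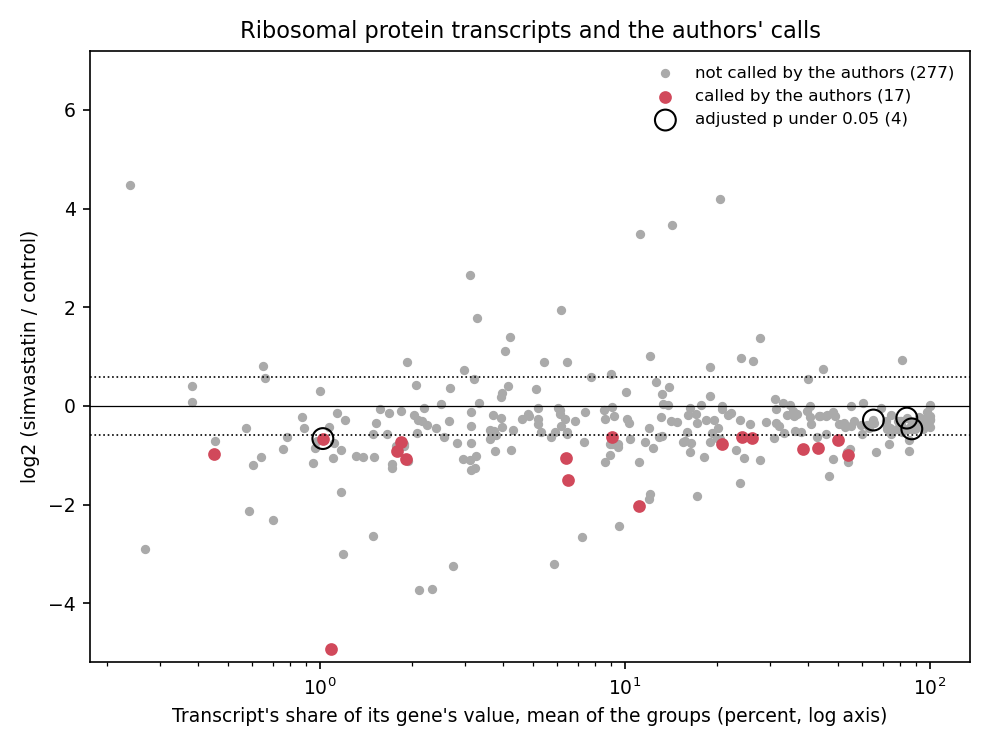
Each transcript's share of its gene's value (x axis, log scale, percent) against its log2 ratio of simvastatin over control (y axis). Of 297 transcripts, 294 are drawn, 2 lie above the axis and 1 is listed at 0 after simvastatin. Red points are the authors' calls other than the Rps27a transcript listed at 0, which is not drawn, and lie below the lower 1.5-fold line. Of all 18 calls, 10 have shares under 10%. Black circles mark an adjusted p under 0.05, of which 3 are main transcripts inside the 1.5-fold lines. Division by the group totals would raise every point by 0.20.

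Lower values were found in every kind of transcript. Of 150 protein-coding transcripts, 127 were lower (84.7%, against 47.4% of all transcripts of that type), and their sum stood at 79.8% of control. Of 67 with a retained intron, 51 were lower (76.1%, against 47.8%), at 75.4% of control. Of 13 annotated as targets of nonsense-mediated decay, 12 were lower (92.3%, against 48.6%), at 70.5%. Of 25 processed transcripts, 21 were lower (84.0%, against 51.0%), at 74.6%. The sum was nearest to control in the 41 assembled transcripts, of which 29 were lower (70.7%, against 48.5%), at 86.7%. Protein-coding transcripts carried 80.0% of the members' value in control and 80.1% after simvastatin. Of the 78 members, 36 had every transcript lower.

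Within single genes the balance of transcripts could move much further than the sum, though no transcript of the genes concerned passed an adjusted p of 0.05. In 12 genes, transcripts with a value of at least 10 went at least 1.5-fold in both directions. In Rpl7 a minor coding transcript had 117 in control and 28.7 after simvastatin, with the authors' call and an adjusted p of 0.087 in the authors' deposited table, and a retained-intron one had 24.97 and 46.2, with a p of 0.055. In Rpl26 a coding transcript had 66.8 and 17.97, with an unadjusted p of 0.034 in the authors' deposited table. Rpl35 was another such gene: its annotated coding transcript had 255 in control and 149 after simvastatin, and a transcript assembled from the reads had 0.01 and 40.7, with a p of 0.424 in the authors' deposited table. Rpl8 was a further one, with 289.7 and 153 for its coding transcript and 0.05 and 79.2 for an assembled one, with a p of 0.196 in the authors' deposited table.

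The share of a gene's value in transcripts annotated as other than protein coding differed most in Rpl23a, where it was 1.83% in control and 30.9% after simvastatin. The next 4 were lower after simvastatin: 84.1% and 58.6% for Rpl3, 65.3% and 42.2% for Rps27a, 37.1% and 19.9% for Rpsa, and 62.4% and 51.2% for Rps18. For Rpl23a this came from 1 retained-intron transcript, with 3.41 and 43.2 and a p of 0.525 in the authors' deposited table. These shares have no replicate check, since no per-sample values were used.

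Ribosomal protein genes took 6.79% of all deposited values in control and 6.20% after simvastatin. Their summed value was 26798 in control and 21357 after simvastatin, 79.7% of control. Large subunit genes took 4.02% and 3.68%, and small subunit genes 2.77% and 2.52%. Without the 7 transcripts of highest control value the members' share was 8.87% and 7.36%. The share was lower after simvastatin by either total.

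Genes just outside the naming rule were lower as well. The mouse counterparts of 79 standard ribosomal proteins were all measured, and 76 of them fell within the rule, which left out Fau and Rps3a1 among others. Fau, a ubiquitin-like fusion with small subunit protein S30, had 416 in control and 319.5 after simvastatin (log2 ratio -0.38). Rps3a1 had 861 and 440.5 (-0.97), a larger difference than any member showed, with a p of 0.391 for the transcript of highest value, in the authors' deposited table.

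Among genes that serve the same process, those that handle ribosomal proteins were lower throughout in the deposited values. All 13 measured chaperones and importers of ribosomal proteins had lower sums (median log2 ratio -0.34). Among them were the import receptors Kpnb1 (103 and 74.2) and Ipo7 (77.1 and 69.4). Ipo7 and Ipo9 turned higher after division by the totals. By adjusted p under 0.05 in the authors' deposited table, 0 of the 13 had a transcript called. By unadjusted p, 5 of 13 had a lower main transcript, against 14.9% of all genes. Elongation and release factors were lower in 9 of 10, with a median of -0.30. Of these, 1 passed in the authors' deposited table, through a transcript of Eef1d, a subunit of the exchange factor of elongation factor 1. That transcript fell from 18.3 to 11.7 with an adjusted p of 0.033 in the authors' deposited table. The gene sums of Eef1d, Abce1 and Gspt1 turned higher after division by the totals.

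Hosts of small nucleolar RNAs with a TOP-type start were lower in 7 of 9 (median -0.47). Among them were Snhg6 (21.1 and 15.2) and Taf1d (18.3 and 17.1), though Taf1d turned higher after division by the totals. In the authors' deposited table, 0 of the 9 passed an adjusted p of 0.05. By unadjusted p, 1 of 9 had a lower main transcript, against the same 14.9%. Other TOP genes, which code for no ribosomal protein, were mixed. Of 17 measured, 12 were lower and 5 higher, with a median of -0.20, which division by the totals brought to about equality. The 2 that passed had a transcript that rose: Pabpc1, the poly(A)-binding protein, went from 124 to 264, 2.12-fold, with an adjusted p of 0.042 in the authors' deposited table. A transcript of Npm1, the nucleolar chaperone, was listed at 0 in control and 47.2 after simvastatin, with an adjusted p of 0.022 in the authors' deposited table, although the sum for Npm1 was lower (253 and 207).

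Regulators of ribosomal protein translation lay on both sides of control. Of 20 measured, 7 had lower and 13 higher sums, with a median log2 ratio of 0.13, among them Ddit4 (56.8 in control, 67.0 after simvastatin), an inhibitor of mTORC1, and Eif4ebp2 (59.7 and 65.1), a repressor of cap-dependent initiation. In the authors' deposited table, 0 of them had a transcript at an adjusted p under 0.05, and by unadjusted p 2 of 20 had a lower main transcript, which is no more than the 14.9% of all genes. Larp1 had 49.3 and 49.7, and the lower sums of Larp4, Mlst8, Rheb and Rptor turned higher after division by the totals. Factors that transcribe ribosomal RNA were lower in 7 of 11, with a median of -0.10 that turned higher after division by the totals. Of these, Rrn3 had 42.6 and 35.6 and stayed lower once scaled, while Polr1d had 32.3 and 43.7. In the authors' deposited table, 0 of the 11 passed an adjusted p of 0.05 either. By unadjusted p, 3 of 11 had a lower and 1 a higher main transcript, against 14.9% and 13.6% of all genes.

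In the authors' enrichment of genes called lower, the KEGG term Ribosome held 18 genes. Of these, 16 were the members named by the calls above, and Mrpl18 and Mrpl12 code for mitochondrial ribosomal proteins. The authors' deposited table gives a fold enrichment of 2.16 with an adjusted p of 0.0633 for it. The same 16 members stand in its term ribonucleoprotein complex, among 46 genes. The authors' network of 117 genes and their list of 45 transcripts linked to aggressiveness held 0 members. Their comparison with the human melanoma line A375 held Rpl32 and Rps16 among 158 genes. In the authors' deposited table Rpl32 has a log2 fold change of -0.39 in B16.F10 and a z-score of 0.066 in A375 cells. Rps16 has -0.29 and -0.17. The A375 scores come from an outside signature at a higher simvastatin dose than the 3.5 µM given here, and are not on the same scale. For Rpl32, -0.39 is further from equality than the log2 ratio of its main transcript (-0.25) or gene sum (-0.29), for a reason not stated.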

How the data were processed

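Stranded libraries from total RNA of 6 B16.F10 cultures were used. The submitters' processing notes name HISAT2 2.0.5, StringTie and the build GRCm38 (mm10); how the authors counted, filtered and tested is not stated. Per the file headers, the deposited table of all transcripts has 1 expression signal for each group, in an unstated unit. It also holds a signed fold ratio, entered here as a score, and a p-value and adjusted p-value, all made by the authors and printed to the third decimal. The deposited table on A375 cells gives a log2 fold change and a z-score. Depth is unknown.

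Samples were grouped by title. No model could be fitted to 1 value per group, so every p is the authors'. Signals were summed per gene and compared as log2 ratios without a pseudocount, using Python 3.11.15, pandas 2.3.3 and numpy 2.4.6; the sums were checked on simulated data. GENCODE mouse release M21 gave transcript types and the sequences for the count of shared 31-base words. Named genes were those with an adjusted p under 0.05, the 10 of highest value, the 5 highest and 5 lowest ratios among sums of at least 10, and a list of well-known members. For other lists, up to 4 genes past the threshold were named, or else the 2 of highest value. For transcript use, the 5 genes with the largest difference were named. Members and lists were chosen with earlier results of these data known. Rps3a1, Fau, Larp1 and any member named outside this rule were singled out after their values were seen. A few genes are counted but not reported here by name. Alternatives were other transcript sets, scalings, a pseudocount of 1 and other call rules.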

Additional observations from a re-analysis of the deposited data

How the results depend on the processing

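No paired analysis was possible because the files give 1 value per group, and for the same reason no replicate could be left out. Unless stated, the cause of a move was not tested. The 4 lower calls became 57 at an unadjusted p under 0.05, 18 by the authors' own call and 11 when the adjustment was recomputed from the deposited p-values, which are rounded; the 0 higher calls became 3 at the unadjusted p. The median log2 ratio of -0.34 became -0.355 both with Ensembl transcripts only and with the most abundant transcripts, -0.35 with protein-coding transcripts, -0.36 centred on all genes, -0.15 scaled to all values and -0.16 scaled to values of non-members, by construction of the scaling. The difference between subunit medians, -0.001, became -0.008 with Ensembl transcripts only, -0.008 with sums of at least 10, -0.008 without genes ending in l, -0.03 with the most abundant transcripts and -0.06 with protein-coding transcripts. The members' share (simvastatin, then control) became 6.54% and 7.10% with Ensembl transcripts only, 7.57% and 9.16% of a total without mitochondrial, histone and small non-coding RNA genes, 6.53% and 7.22% with 6 further genes, 5.80% and 6.39% without Rplp1, and 8.28% and 10.1% with protein-coding transcripts; it was lower after simvastatin in each of these. The settings with protein-coding transcripts were chosen after seeing the data, as was summing with named pseudogenes. Of the 28 members that the naming rule selects, 3 changed sign when scaled to all values, 2 by the fold of the most abundant transcript and 0 with a pseudocount of 1; over all 78 members, scaling took the number lower from 74 to 67.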
